A study of Oryza sativa Japonica Group with 8 samples.

Results

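Milk grains were set against roots sampled before flowering in rice (Oryza sativa, ssp. japonica). The comparison took 2 of 8 poly(A) RNA libraries, 1 for each organ. A locus was a member when it had at least 5 FPKM (fragments normalised to transcript length and to the mapped fragments of the library) in the higher of the compared libraries, and 15384 of the 31187 loci in the table (49.3%) met this limit. Both groups were greenhouse-grown plants with no treatment named in the labels. The grains were at the milk stage, and the roots were a mixture of stages that began at panicle initiation and ended on the eve of flowering. The other 6 libraries, used below as context, were mature seeds, flower buds, flowers, leaves sampled before flowering, leaves sampled after flowering and roots sampled after flowering. Each group held 1 library, so no value has a replicate error and no p-value could be computed. Every difference is one between these libraries. In such tissue libraries, fewer cells of a type and less RNA per cell cannot be told apart.

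At the milk stage the rice grain is filling. Its endosperm, the nutritive tissue around the embryo, accumulates starch and storage proteins, and the soft contents give the stage its name. Roots take up water and mineral nutrients, load them into the vascular strand and secrete compounds into the soil. Plant gene families often lie as neighbouring copies on a chromosome. The table gives assembly identifiers and positions on Release 7 of the MSU rice annotation and pairs no identifier with a gene or its exons and UTRs, so loci are described by position, level and the other organs in which they were detected.

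The labels were first read against the other libraries. Across loci on the log2(FPKM + 1) scale, milk grains had a Pearson correlation of 0.741 with mature seeds and 0.533 with roots before flowering. Roots before flowering had 0.646 with the later library labelled as roots, which itself had 0.987 with leaves after flowering. The table therefore holds no second library with a root profile against which the root library could be checked. These coefficients are across loci, which share their libraries and are not independent replicates. In milk grains 10413 loci reached 5 FPKM, against 12739 in roots before flowering, with a summed FPKM of 611306, against 577164.

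All ratios below are log2((milk grains + 1)/(roots before flowering + 1)) in FPKM, which understates the difference of low loci. A locus was called different when this ratio was at least 2 in size, which is 4-fold on that scale. In milk grains 1807 loci were at least 4-fold higher (11.7% of those tested) and 4231 were at least 4-fold lower (27.5%), so 39.2% of the loci differed by this rule. The other 9346 loci (60.8%) did not reach it. Called loci were thus lower in milk grains more often than higher, and 29.9% of them were higher. The median ratio of the tested loci was -0.36, and both values moved with the scaling of the libraries. After median-of-ratios scaling the median was -0.26 and 31.9% of the called loci were higher, and with equal sums over loci other than the 100 most abundant of either library the median was 0.02 and 37.6% were higher.

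The called loci differed widely in size. Among the loci higher in milk grains, 1296 (71.7%) had a ratio from 2 to under 4, 318 (17.6%) from 4 to under 6 and 193 (10.7%) of 6 or more. Among the loci lower in milk grains these numbers were 2875 (68.0%), 1045 (24.7%) and 311 (7.35%). The loci higher in milk grains had a median of 27.8 FPKM in milk grains and 1.15 FPKM in roots before flowering, and 861 of them (47.6%) were under 1 FPKM in the roots. The loci lower in milk grains had a median of 0.677 FPKM in milk grains and 23.5 FPKM in roots before flowering, and 2409 of them (56.9%) were under 1 FPKM in the grains. At the limit of the comparison, the lowest member had 5.001 FPKM in its higher library and the highest locus left out had 4.9999 FPKM. The 1101 loci with 5 to under 6 FPKM had a median ratio of -0.30, and the 1299 loci with 4 to under 5 FPKM, which were not tested, had -0.40.

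**Figure D1:**
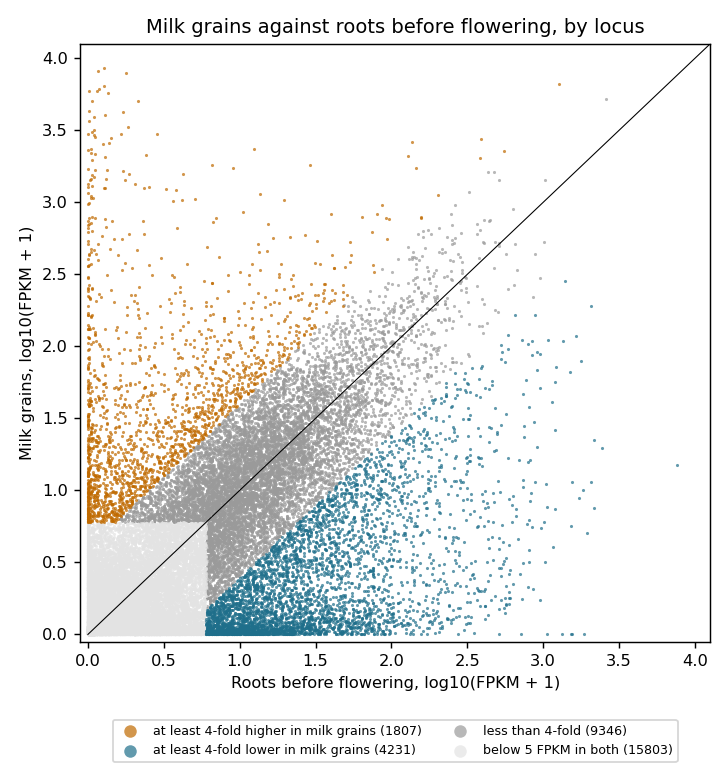
Level of each of the 31187 loci in milk grains (vertical axis) and in roots before flowering (horizontal axis), both as log10(FPKM + 1), with 1 point per locus and a line at equal values. The 1807 loci higher in milk grains reach farther up the axis than the 4231 lower loci reach to the right, and many points of both colours lie along an axis.

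A few loci took much of the summed FPKM in milk grains. FPKM is normalised to transcript length, so these shares are not shares of RNA mass or of reads. The 10 loci with the highest levels took 10.9% of all FPKM in milk grains, and those same loci took 0.672% in roots before flowering. The 100 most abundant took 37.7% in milk grains and 1.84% in the roots. Of these 100 loci, 91 were higher in milk grains by 4-fold or more, 9 were not called and none was lower. Their median was 1636 FPKM in milk grains and 0.709 FPKM in roots before flowering. In mature seeds 90 of them reached 5 FPKM and 64 reached 100 FPKM, and 25 reached 100 FPKM in a flower library and 19 in a leaf library. Of the 100 loci, 85 had a position shared with no other locus, with a median span of 1067 bp.

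Roots were less concentrated, and more of their leading loci were abundant in leaves and flowers, while fewer were abundant in mature seeds. The 10 loci most abundant in roots before flowering took 0.893% of all FPKM in milk grains and 4.64% in the roots, and the 100 most abundant took 3.26% in milk grains and 18.7% in the roots. Of these 100, 1 was at least 4-fold higher in milk grains, 88 were lower and 11 were not called. They had a median of 10.7 FPKM in milk grains and 849.8 FPKM in roots before flowering. In a leaf library 61 of them reached 100 FPKM, in a flower library 49, and in mature seeds 38, where 87 reached 5 FPKM. Their 81 members with a position of their own had a median span of 2000 bp.

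The leading lists had 4 loci in common, of which 3 were not called. All 4 had at least 100 FPKM in every library. The locus with the highest level in both lay on chromosome 3 (26459839 to 26461279) and was singled out after its values were seen. It had 5185 FPKM in milk grains and 2615 FPKM in roots before flowering, a ratio of 0.99, and between 3286 and 4746 FPKM in the other 6 libraries. Levels this similar in size were common among loci detected in both organs: of the 7768 loci that reached 5 FPKM in both, 4678 (60.2%) differed by less than 2-fold, 417 were at least 4-fold higher in milk grains and 701 lower. Of the 15384 tested loci, another 2645 reached 5 FPKM in milk grains alone of the pair, and 4971 in roots alone. Such a locus can lie just under 5 FPKM in the other library, so it need not be 4-fold different.

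The extremes of the comparison were named by rule, as the 2 loci at each end among those with a position of their own, 50 FPKM or more in 1 library of the pair and no listed 0 in the other. Both loci at the upper end lay on the short stretch of chromosome 7 between 6.28 and 6.61 Mb. XLOC_055776 (chromosome 7, 6276076 to 6276821) had 8139 FPKM in milk grains and 0.174 FPKM in roots before flowering, a ratio of 12.76. It had 2046 FPKM in mature seeds and at most 0.0233 FPKM in the flower, leaf and later root libraries. XLOC_055807 (chromosome 7, 6613130 to 6613762) had 8606 FPKM in milk grains and 0.284 FPKM in roots before flowering, a ratio of 12.71, with 9554 FPKM in mature seeds. These loci were thus seen in the grain libraries, and the first was lower and the second slightly higher in mature seeds than in milk grains.

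Both loci at the lower end lay on chromosome 1. XLOC_001806 (chromosome 1, 23447019 to 23450935) had 0.737 FPKM in milk grains and 951 FPKM in roots before flowering, a ratio of -9.10. It had 39.5 FPKM in leaves before flowering and between 2.01 and 9.36 FPKM in the remaining libraries. XLOC_000386 (chromosome 1, 4646426 to 4648260) was the most abundant locus of the root library, with 14.02 FPKM in milk grains and 7605 FPKM in roots before flowering, a ratio of -8.98. Unlike the grain loci it was detected in every library, with 259 and 164 FPKM in leaves before and after flowering, 92.6 FPKM in the later root library, 66.0 and 81.7 FPKM in flower buds and flowers, and 48.9 FPKM in mature seeds.

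The called loci were then followed into libraries that had no part in the ratio. Of the 1807 loci higher in milk grains, 1159 (64.1%) reached 5 FPKM in mature seeds, 952 (52.7%) in a flower library and 760 (42.1%) in a leaf library, and 444 (24.6%) in no library among these. For the 10413 loci that reached 5 FPKM in milk grains, the shares were 84.4%, 85.4%, 81.4% and 7.33%. Of the 4231 loci lower in milk grains, 1932 (45.7%) reached 5 FPKM in mature seeds, 2454 (58.0%) in a flower library and 2517 (59.5%) in a leaf library, and 1155 (27.3%) in none. For the 12739 loci that reached 5 FPKM in roots before flowering, the shares were 75.3%, 82.1%, 80.7% and 10.6%. In both directions the called loci were therefore found in fewer other organs than loci of the same library in general. This is in part built in, since a 4-fold gap between the pair leaves out loci with even levels across organs. At this limit the organ most often shared was the mature seed for loci higher in milk grains, while leaf and flower were close for the lower loci and changed order at a limit of 1 FPKM, with 77.4% for leaf and 78.1% for flower.

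The sets that reached 1 other organ alone were also counted. Mature seeds were the only other organ with at least 5 FPKM for 319 of the loci higher in milk grains (17.7%) and for 57 of the lower loci (1.35%). The leaf was the only one for 54 of the higher loci (2.99%) and 497 of the lower loci (11.7%). The flower was the only one for 82 of the higher loci (4.54%) and 224 of the lower loci (5.29%). Among all loci with 5 FPKM in milk grains, mature seeds alone took 3.995%, leaf alone 2.24% and flower alone 1.91%. Among all with 5 FPKM in roots before flowering, these shares were 1.02%, 5.17% and 2.57%. The 1.35% and the 2.99% were thus close to the shares of loci in general. Milk grains held the highest of the 8 values at 1396 of the 1807 higher loci (77.3%), and at 32.6% of the loci that reached 5 FPKM there. Roots before flowering held the highest value at 2613 of the 4231 lower loci (61.8%), and at 27.2% of the loci that reached 5 FPKM there. These higher shares of the called loci are in part built in. The rule chose loci with a high level in that library and a low one in the other of the pair. Median levels in the other libraries lay between those of the pair, which the rule also favours. Loci higher in milk grains had medians of 8.68 FPKM in mature seeds, 4.65 and 4.72 FPKM in flower buds and flowers, and 2.38 and 2.12 FPKM in leaves before and after flowering. Loci lower in milk grains had 4.08 FPKM in mature seeds, 6.43 and 6.18 FPKM in buds and flowers, and 5.72 and 6.36 FPKM in the leaf libraries.

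Read the other way, the share of loci that differed between grain and root was lowest among broadly expressed loci. This is in part built in, since a locus under 5 FPKM in the other organs was tested only if 1 library of the pair lifted it over the limit, so the shares are a description. Of the 2016 tested loci with at least 5 FPKM in none of flower, leaf and mature seed, 22.0% were higher in milk grains and 57.3% lower. Of the 1755 loci that reached 1 of these organs, 25.9% were higher and 44.3% lower, and of the 2152 that reached 2 organs, 14.3% and 35.7%. Of the 9461 loci that reached all 3, 6.34% were higher and 16.2% lower. Broad loci nonetheless made up 600 of the higher and 1529 of the lower loci (33.2% and 36.1%), against 7332 of the 9346 loci not called (78.5%). Part of the difference thus lay in loci detected in flower, leaf and mature seed, but such loci were rarer among called loci than among the others.

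**Figure D2:**
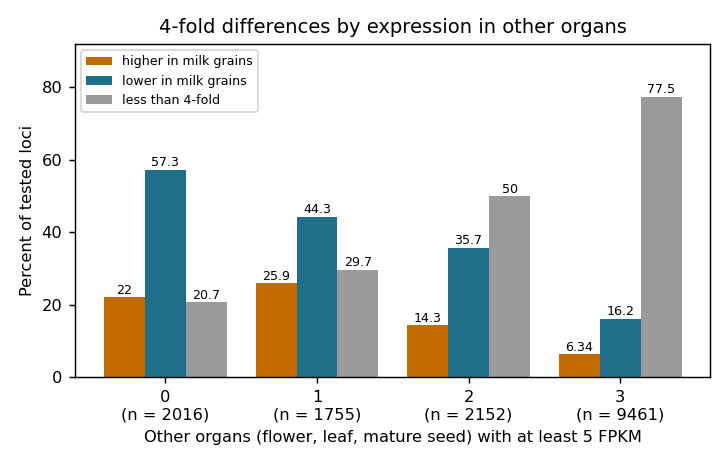
Percent of tested loci at least 4-fold higher in milk grains, at least 4-fold lower and less than 4-fold different, by the number of other organs with at least 5 FPKM. The share under 4-fold is 20.7% where no other organ reaches the limit and 77.5% where all 3 do.

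Loci typical of another organ were also read in the pair. They were chosen from the mature seed, flower and leaf libraries alone, with at least 10 FPKM in the organ and at least 5 times the highest of the other organs after adding 1 FPKM, so that neither compared library had a part in the choice. Counts are over all members, whether or not they reached 5 FPKM in the pair. Over all 31187 loci, the same counts gave 5.79% higher, 13.6% lower and a median ratio of -0.11. The mature seed group held 525 loci, of which 244 (46.5%) were higher in milk grains by 4-fold or more and 20 (3.81%) lower, with a median ratio of 1.90. Its median level was 7.74 FPKM in milk grains and 0.148 FPKM in roots before flowering, and its share of all FPKM was 27.5% in milk grains and 0.528% in the roots. Mature seeds and milk grains are stages of the same organ, so this group gives a check on the label of the grain library. Of the 525 loci, 288 (54.9%) reached 5 FPKM in milk grains, against 83 (15.8%) in roots before flowering.

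The leaf group moved the other way. Of 989 loci, 17 (1.72%) were higher in milk grains by 4-fold or more and 423 (42.8%) lower, with a median ratio of -1.46. The median level was 0.521 FPKM in milk grains and 6.84 FPKM in roots before flowering, and 160 loci (16.2%) reached 5 FPKM in milk grains, against 549 (55.5%) in the roots. Over all 31187 loci these shares were 33.4% and 40.8%. Loci much higher in leaves than in flowers and mature seeds were therefore detected more often in the root than in the grain. This is in part built in. The leaf and flower groups had to be low in mature seeds, a later stage of the grain, while no root library was used in the choice. In the flower group, 24 of 910 loci (2.64%) were higher in milk grains and 136 (14.9%) lower, while the median ratio was 0.07. The median and the counts thus differ in sign, and most members were low in both libraries. The medians were 0.361 FPKM in milk grains and 0.235 FPKM in roots before flowering. The limit of 5 FPKM was reached by 53 members in milk grains and by 167 in the roots.

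**Figure D3:**
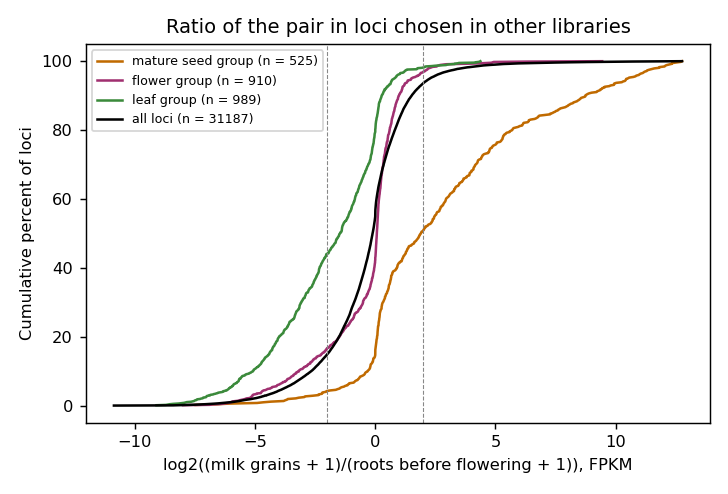
Cumulative percent of loci (vertical axis) by log2((milk grains + 1)/(roots before flowering + 1)) in FPKM (horizontal axis) for loci chosen in the mature seed, flower and leaf libraries and for all 31187 loci, with dashed lines at the 4-fold limits. The mature seed curve lies to the right (median 1.90) and the leaf curve to the left (median -1.46), and the flower curve rises steeply near 0.

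Called loci were finally placed along the chromosomes. Among loci with a position of their own, a run was a series of neighbouring tested loci, all called in the same direction and each less than 100 kb from the next. There were 8 runs of at least 4 loci higher in milk grains, which held 37 of 1249 such loci (2.96%), and 86 runs of loci lower in milk grains, which held 408 of 3080 (13.2%). The longest had 6 and 12 loci. These counts stand beside calls of 11.7% higher and 27.5% lower and were not set against an expectation. Untested loci and loci at shared positions were passed over, so other loci can lie between the members of a run. The regions of the runs described below held from 5 to 19 loci, members included. The longest run in each direction was named by rule, and the other runs of at least 5 higher or 8 lower loci were added after they were seen. Neighbouring copies that are nearly identical can share reads, and the libraries do not record the strand, so the levels of single loci within a run are uncertain.

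The longest run higher in milk grains covered 158 kb of chromosome 5 (15372628 to 15530862). Its 6 loci were short, from 448 to 745 bp. In map order they had 4297, 5902, 50.9, 1716, 988.6 and 2312 FPKM in milk grains and at most 0.0229 FPKM in roots before flowering, and together they made up 2.50% of all FPKM in milk grains. All 6 were still detected in mature seeds, from 11.2 to 1576 FPKM, and no flower or leaf library exceeded 0.00385 FPKM. All 6 were listed at 0 in flower buds, both leaf libraries and the later root library, and 4 in flowers. A second run of 5 loci lay within 23.7 kb of chromosome 11 (15320187 to 15343857), with 46.8, 1649, 6.09, 2965 and 2815 FPKM in milk grains and at most 0.709 FPKM in roots before flowering. This run differed from the first in mature seeds, where its loci had 0.0940, 3.68, 0.131, 7.81 and 134 FPKM.

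The run on chromosome 2 (8401194 to 8467151) held 5 loci of 2035 to 2140 bp, with 11.8, 794, 2061, 1255 and 1264 FPKM in milk grains and at most 0.306 FPKM in roots before flowering. In mature seeds the first pair of these loci had 594 and 2107 FPKM, above their level in milk grains, and the other 3 were listed at 0. Exact zeros occur in this table at loci that are abundant elsewhere, so a listed 0 is not read as absence. The run on chromosome 12 (13352465 to 13385490) was of another kind, with 5 loci at 6.54 to 46.5 FPKM in milk grains, at most 1.77 FPKM in roots before flowering and at most 1.86 FPKM in mature seeds.

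The longest run lower in milk grains covered 206 kb of chromosome 7 (1319030 to 1524629). Its 12 loci had 0.00464 to 0.445 FPKM in milk grains, with a median of 0.0575, and 6.29 to 302.5 FPKM in roots before flowering, with a median of 14.4. Only the last of them, of 12606 bp where the median was 719.5 bp, reached 5 FPKM in a flower or leaf library or in mature seeds. A run of 9 loci on chromosome 10 (16515840 to 16635314) reached 5 FPKM in no other library. Its loci had at most 2.15 FPKM in milk grains and 6.78 to 181.6 FPKM in roots before flowering. They had at most 1.58 FPKM in any of the other 6 libraries, with all 9 listed at 0 in flowers and 6 in mature seeds. Like the run of chromosome 5 higher in milk grains, this run held loci of similar span, from 577 to 900 bp.

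The other 3 runs lower in milk grains held loci that reached 5 FPKM in leaves and in the later root library. That library had a correlation of 0.987 with leaves after flowering, so its values are not read as a second root result. In flowers and mature seeds, 2 of these runs held such loci too. In the later root library 6 loci of the chromosome 8 run reached 5 FPKM, up to 34.4 FPKM. There 4 loci of the chromosome 5 run did, up to 51.6 FPKM, and 6 loci of the chromosome 7 run, up to 182 FPKM. The 9 loci on chromosome 8 (5222213 to 5265389) had 0.0818 to 0.732 FPKM in milk grains and 14.5 to 199.5 FPKM in roots before flowering, and 5 of them reached 5 FPKM in leaves after flowering and none in leaves before flowering. In this run 2 loci had 12.6 and 14.8 FPKM in mature seeds, and 1 had 21.1 FPKM in flower buds and 12.8 FPKM in flowers. The 8 loci on chromosome 5 (2436922 to 2482637) had at most 0.581 FPKM in milk grains and 6.89 to 131.6 FPKM in roots before flowering, and 4 reached 5 FPKM in each leaf library. Their highest value outside the pair was 92.4 FPKM, in flower buds, where 3 of them reached 5 FPKM, as did 2 in flowers and 1 in mature seeds. The 8 loci on chromosome 7 (21121292 to 21282637) had at most 0.799 FPKM in milk grains and 6.50 to 93.0 FPKM in roots before flowering. In leaves after flowering 6 of these reached 5 FPKM, up to 177 FPKM, and in leaves before flowering 2 did.

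**Figure D4:**
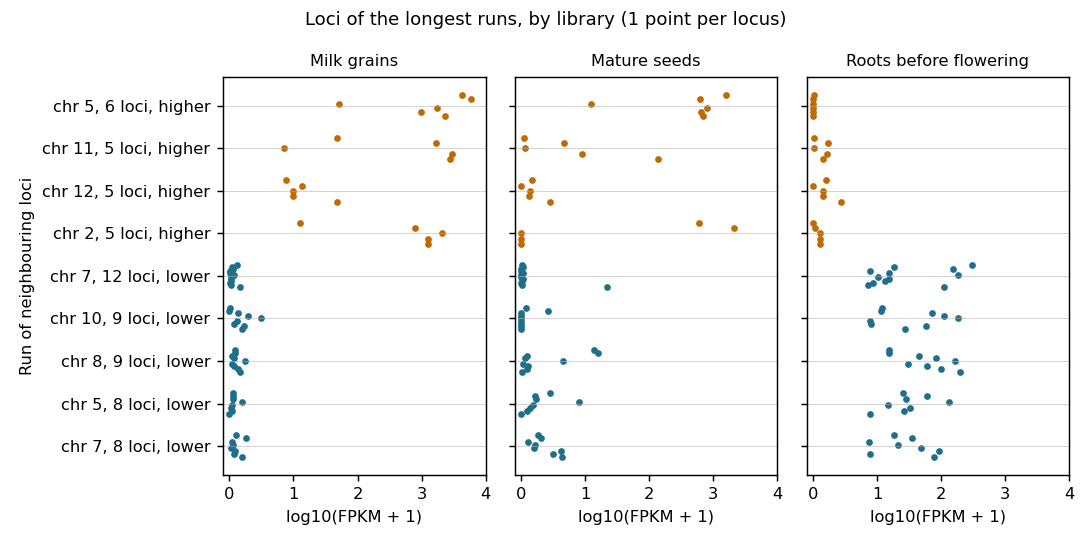
Level of each locus of the 9 described runs in milk grains, mature seeds and roots before flowering, as log10(FPKM + 1), with 1 point per locus and 1 line of points per run, named by chromosome, number of loci and direction in milk grains. The 4 upper runs stand out in milk grains and the 5 lower runs in roots before flowering. In mature seeds all 6 loci of the upper chromosome 5 run and 2 of the 5 on chromosome 2 lie above 10 FPKM. So do some loci of other runs, at 134 FPKM on chromosome 11 and at up to 21.2 FPKM in the lower runs.

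The most abundant loci of each library were also read at the low end of the other libraries, in a comparison chosen after the data were seen. The 82 loci that reached 1000 FPKM in milk grains had a median of 192 FPKM in mature seeds and 1890 FPKM in milk grains. Their median was 0.371 FPKM in roots before flowering, 0.275 and 0.428 FPKM in buds and open flowers, 0.0572 and 0.0325 FPKM in leaves before and after flowering and 0.0550 FPKM in the later root library. In roots before flowering 58 of the 82 had at least 0.1 FPKM and 2 were listed at 0. In the leaf libraries and the later root library these numbers were 32 to 39 and 18 to 21. The flower libraries were nearer to the root, with 48 and 51 at 0.1 FPKM and 8 and 7 listed at 0 in buds and open flowers. At 1 FPKM the root and both flower libraries had 32 each. The median of grain loci in the root library thus lay above those in the leaf libraries and between those in buds and open flowers. The 36 loci that reached 1000 FPKM in roots before flowering had a median of 12.2 FPKM in milk grains, lower than in any other library, where the medians lay between 69.2 and 187 FPKM.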

How the data were processed

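Non-directional paired-end RNA-seq libraries of poly(A) RNA (100 cycles) were analysed from a table of FPKM values, which the authors computed and deposited for 31187 loci, 1 per library. The submitters' processing notes name TopHat, Cufflinks and Cuffdiff; versions, order and settings are not given there. Genome positions follow MSU Release 7, per the file headers. Every locus exceeded 1 FPKM in at least 1 library.

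Each column was assigned by its library title. Ratios used a pseudocount of 1 FPKM, a minimum of 5 FPKM in the higher library and no test, with 1 library per group. Work was done in Python 3.11.15 with pandas 2.3.3, numpy 2.4.6 and scipy 1.17.1, and the call rule was tested on simulated data. Read depth is unknown: among 1356 loci below 0.15 FPKM in both libraries, no bin of their log2 ratios (width 0.02) held more than 1.33%, so no common step gave whole reads. The precision of low values can therefore not be given.

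Of the identifiers, 0 matched the RefSeq gene table, which follows another assembly, so a list of grain, root, green tissue and pollen markers could not be applied and no sequence is shown. The 10295 loci that share a position were kept, but left out of lengths and runs. Named loci were the 2 highest and the 2 lowest ratios among loci with a position of their own, at least 50 FPKM and no listed 0, with the longest run in each direction. Members, groups and rules were chosen with earlier results of these data known. Alternatives covered pseudocount, minimum, fold, scaling, shared positions, listed zeros and the limits of the groups.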

Additional observations from a re-analysis of the deposited data

How the results depend on the processing

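In total 91 values were recomputed for 17 results, of which 49 stayed within 1.5 times a count or within a 95% interval over loci, 39 moved outside and 3 changed sign. The 49 include the shares in mature seeds and in a flower library with the later root library counted as leaf, which could not change. Loci of a library are not replicates, so the interval gives no replicate error. The cause of each move was not tested. No paired analysis was possible because each group held 1 library, and for the same reason no replicate could be left out. The counts of 1807 higher and 4231 lower loci stayed within 1.5 times under every other pseudocount, minimum, scaling and choice of loci, between 1249 and 2343 higher and between 3080 and 4640 lower. They followed the fold limit, with 3654 higher at 2-fold (log2 of 1), and with 921 higher and 2584 lower at a log2 of 3. The share of called loci that were higher was 31.3% with a pseudocount of 0.1, 31.9%, 34.97% and 37.6% after median-of-ratios, upper-quartile and equal-sum scaling, 37.8% at a log2 of 1 and 26.3% at a log2 of 3. The median ratio was -0.26, -0.10 and 0.021 (a change of sign) under the same scalings.

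The median of the mature seed group was 3.26 with a pseudocount of 0.1, 2.45 when 10 times the other organs was required, and 3.28 and 4.79 among members with at least 1 and 10 FPKM in the pair. The leaf group gave -2.46 with that pseudocount and -2.39 and -3.65 with those minimums. The flower group gave 0.41 with that pseudocount, 0.10 with equal sums, 0.13 at 10 times, and changed sign to -1.19 and -3.61 with those minimums, which keep members that are high in either library.

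With 1 and 10 FPKM as the limit for detection in another organ, the loci higher in milk grains were found in mature seeds at 88.2% and 45.9%, in a flower library at 73.99% and 35.5%, in a leaf library at 63.3% and 29.1% and in none at 7.30% and 41.9%. The lower loci were found at 72.3% and 29.9%, 78.1% and 44.7%, 77.4% and 47.4%, and in none at 12.6% and 38.4%. With loci at shared positions included, there were 20 runs of at least 4 higher loci and 137 of lower loci, in place of 8 and 86. The longest then held 10 and 12 loci, in place of 6 and 12.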

Other observations

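Short loci differed most often. Among 664 tested loci with a position of their own and a span under 1000 bp, introns included, 28.5% were at least 4-fold higher in milk grains and 44.9% lower. From 1000 to under 2000 bp the shares were 15.2% and 51.0% of 1511 loci, from 2000 to under 5000 bp 10.9% and 25.01% of 5281, and from 5000 bp upwards 7.43% and 20.02% of 3447. The 189 short loci higher in milk grains took 18.9% of the summed FPKM there, more than the 574 higher loci of 2000 to under 5000 bp with 8.91%. In roots before flowering, the 298 short lower loci took 4.65% and the 1321 lower loci of 2000 to under 5000 bp took 19.4%.

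Across the 12 chromosomes, the share of tested loci higher in milk grains lay between 10.3% on chromosome 10 and 15.6% on chromosome 12. The share of lower loci lay between 24.6% on chromosome 12 and 33.0% on chromosome 10, so the same pair of chromosomes held the extremes in both directions.

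Exact zeros stood beside high values. In milk grains 138 tested loci were listed at 0, and 11 of these reached 100 FPKM in roots before flowering, up to 1869. In roots before flowering 112 tested loci were listed at 0, and 21 of these reached 100 FPKM in milk grains, up to 2967. Of these loci, 11 in milk grains and 13 in roots lay in shared spans where every locus of the table was listed at 0.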
